A study of Mus musculus with 72 samples.

Results

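The transcripts of 10 acute phase proteins (Saa1, Saa2, Saa3, Hp, Hpx, Orm1, Orm2, Crp, Apcs and Lrg1) were followed in the liver of males of 3 inbred mouse strains from before birth to adulthood, with whole brain as the reference tissue. The members were all probe sets whose only gene symbol is one of these 10, which gave 10 of 18194 genes and 11 of the 45101 probe sets on the arrays. Saa1 has 2 probe sets (1450788_at and 1419075_s_at) and each other gene has 1. The 72 arrays fall into 24 groups of 3: strains C57BL/6J, DBA/2J and 129S2, each at embryonic stage E14.5, postnatal day 1 (P1), postnatal day 7 (P7) and 11 to 14 weeks of age (P90), in liver and in brain. The labels name no treatment and no altered allele. The P90 animals were bought, C57BL/6J and DBA/2J from one supplier and 129S2 from another, while the younger stages were offspring of the bought animals, so the supplier and the strain 129S2 cannot be told apart. The labels do not say whether replicates are separate animals or litters, so every p-value measures only the spread between these arrays. Values are log2 signals summarised by the authors with RMA (robust multi-array averaging), without counts or detection calls, and the small number of arrays in a group limits the precision.

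The acute phase response is the change in plasma proteins that follows infection or injury. Cytokines such as interleukin-6 and interleukin-1 reach hepatocytes and act through STAT3, C/EBP factors and NF-kappaB on the genes of secreted proteins, among which the serum amyloid A proteins Saa1 and Saa2 are the most inducible in the mouse. Serum amyloid A travels on high-density lipoprotein, haptoglobin (Hp) binds free haemoglobin, haemopexin (Hpx) binds free haem, the orosomucoids (Orm1, Orm2) are carriers of small molecules, and the pentraxins C-reactive protein (Crp) and serum amyloid P component (Apcs) are pattern recognition proteins. In the mouse Apcs, rather than Crp, is the pentraxin that responds to inflammation. Saa3 is also made outside hepatocytes, in macrophages and fat, and Lrg1, leucine-rich alpha-2-glycoprotein, is a secreted protein of hepatocytes and neutrophils.

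The labelled tissues were checked on markers. All 9 hepatocyte markers lay above the median signal in each liver set, and the neuronal gene Snap25 lay between 2.66 and 3.73 in liver against 10.74 to 13.79 in brain. Other brain markers separated the tissues less well. Of 6 neuron and glia markers at E14.5, 3 were at least 2-fold lower in liver than in brain in each strain and 1 was higher. At P1, P7 and P90, 3, 5 and 6 were lower and 0 higher. The brain reference was not free of signal from hepatocyte genes at the young stages. Albumin (Alb) ranged from 8.13 to 13.40 in E14.5 brain, from 10.56 to 12.48 at P1, from 9.81 to 11.79 at P7 and from 5.58 to 6.66 at P90. The E14.5 brain array with the highest Alb, C57BL/6J replicate 2 at 13.40, also had the highest Hpx, 8.22, against 6.43 to 7.43 on the other E14.5 brain arrays. At P90 the brain signal of Hpx was between 4.68 and 5.55. Over the 9 brain arrays of each stage before P90, the correlation with Alb was 0.908 to 0.955 for Hpx and 0.661 to 0.897 for Apcs. For Hp it was 0.389 to 0.922 and for Crp 0.396 to 0.87. The source of these transcripts in young brain was not tested. The liver excess over brain of Hp, Hpx, Crp and Apcs before P90 is thus measured against a reference with a higher Alb signal than at P90.

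**Figure D1:**
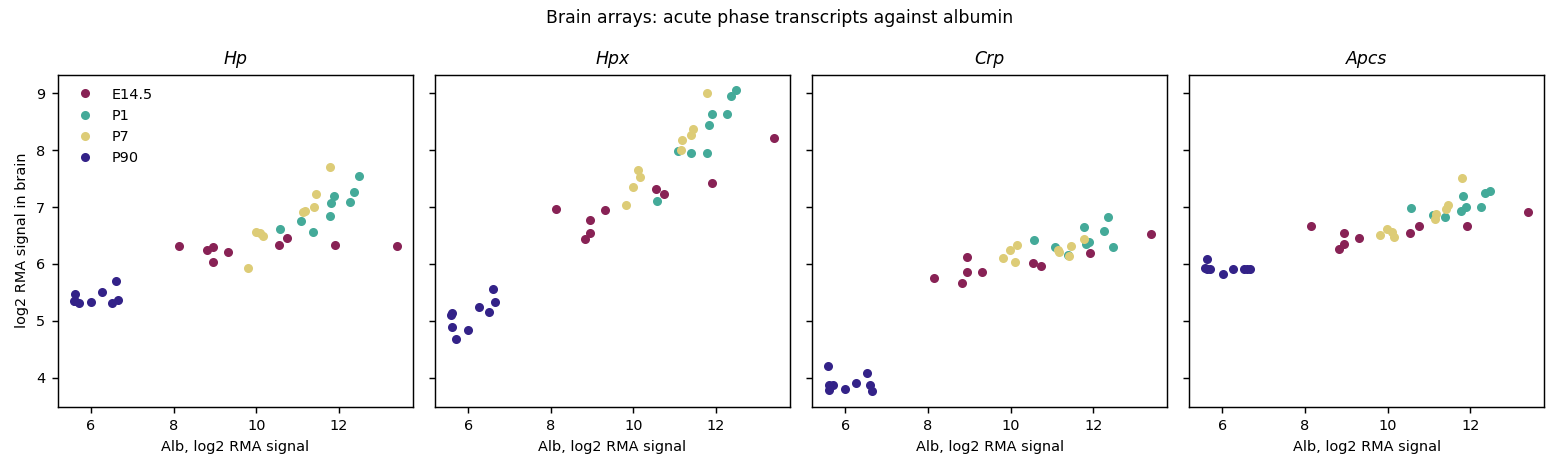
Brain arrays only: log2 RMA signal of Hp, Hpx, Crp and Apcs (y axis) against that of albumin, Alb (x axis), 1 point per array, coloured by stage, 9 arrays per stage. The P90 arrays sit apart at the lower left (Alb 5.58 to 6.66), and the E14.5 array with Alb at 13.40 has Hpx at 8.22.

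The promoter sequences of the members that differ most in timing are shown because Saa1 and Saa2 are close copies that the arrays separate poorly, Orm2 is the last member to appear, and Apcs is one of the first. RefSeq (GRCm38.p6) promoter windows matched 8 of the 10 members. Each line gives the 250 bases before the annotated transcript start, 5′ to 3′ on the gene's strand, and capitals mark matches to a C/EBP motif (TTGCNNAA) or a STAT motif (TTCNNNGAA) on either strand.
Saa1, chr7:46742981-46743230, minus strand: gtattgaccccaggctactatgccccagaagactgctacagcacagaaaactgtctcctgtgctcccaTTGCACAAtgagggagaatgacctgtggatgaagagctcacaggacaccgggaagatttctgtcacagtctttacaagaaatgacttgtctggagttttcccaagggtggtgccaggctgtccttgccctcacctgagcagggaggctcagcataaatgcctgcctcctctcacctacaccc
Saa2, chr7:46751583-46751832, plus strand: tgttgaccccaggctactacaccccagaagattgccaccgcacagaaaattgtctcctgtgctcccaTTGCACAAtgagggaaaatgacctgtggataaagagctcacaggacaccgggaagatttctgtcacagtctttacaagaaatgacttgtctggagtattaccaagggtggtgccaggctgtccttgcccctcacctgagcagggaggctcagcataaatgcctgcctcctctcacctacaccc
Orm2, chr4:63362199-63362448, plus strand: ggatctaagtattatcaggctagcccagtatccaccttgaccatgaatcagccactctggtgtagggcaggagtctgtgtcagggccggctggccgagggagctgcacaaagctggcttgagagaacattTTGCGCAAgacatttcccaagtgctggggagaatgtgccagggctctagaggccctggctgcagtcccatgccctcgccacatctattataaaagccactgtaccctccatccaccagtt
Apcs, chr1:172895055-172895304, minus strand: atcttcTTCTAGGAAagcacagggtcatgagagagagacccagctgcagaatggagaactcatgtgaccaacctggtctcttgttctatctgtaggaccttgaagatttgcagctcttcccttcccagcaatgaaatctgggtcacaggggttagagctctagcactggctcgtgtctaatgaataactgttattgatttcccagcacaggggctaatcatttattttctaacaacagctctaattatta
Saa1 and Saa2 were identical at 238 of 251 aligned positions, 94.8%, whereas Saa1 and Saa3 were identical at 48.5%. Both carry the same C/EBP match, TTGCACAA, which ends 175 bases before the start in Saa1 and 176 bases before it in Saa2. Orm2 holds the palindromic match TTGCGCAA, which ends 113 bases before the start, and Apcs a STAT match, TTCTAGGAA, which ends 236 bases before it. Of the windows not printed, Saa3 and Hpx each held 1 C/EBP match, and Crp and Lrg1 held none of the motifs searched. Over all 32851 windows of this length in the table, 9.56% held a C/EBP match, 7.02% a STAT match and 3.9% an NF-kappaB match (consensus motif of 10 letters), the last of which no member window held. The motifs do not overlap with each other in the member windows. Of the Saa1 probe sets, 1419075_s_at carries an accession that RefSeq assigns to Saa2, as does the Saa2 probe set 1449326_x_at, so values of Saa1 and Saa2 are uncertain as to which of these genes they read. For genes with several probe sets, 1450788_at stands for Saa1 below unless the other is named.

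The first question was when each member rises above the brain level in liver. Equal values recurred only within a tissue and stage, so each such set was treated as normalized apart. Stages and tissues were therefore compared by size only, with no test, after quantile normalization of the arrays together. Onset was the first stage at which a probe set was at least 2-fold higher in liver than in brain in each strain and its lowest liver array lay above its highest brain array. Hp, Hpx, Crp, Apcs and Saa3 met this at E14.5, Orm1 and Lrg1 at P1, both Saa1 probe sets and Saa2 at P7, and Orm2 at P90. The count at least 2-fold above brain was 5 of 11 probe sets at E14.5 (13.9% of all probe sets counted), 7 at P1 (16%), 10 at P7 (17.1%) and 11 at P90 (19%). Probe sets were counted here and below when their highest group mean lay above the median of all values after normalization. Members are liver genes by choice, so a high share is no finding, and the order is what the data add. Onset of Saa3 moved to P7 on the values as deposited, and onset of Orm2 moved to P7 with each array centred on its median.

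**Figure D2:**
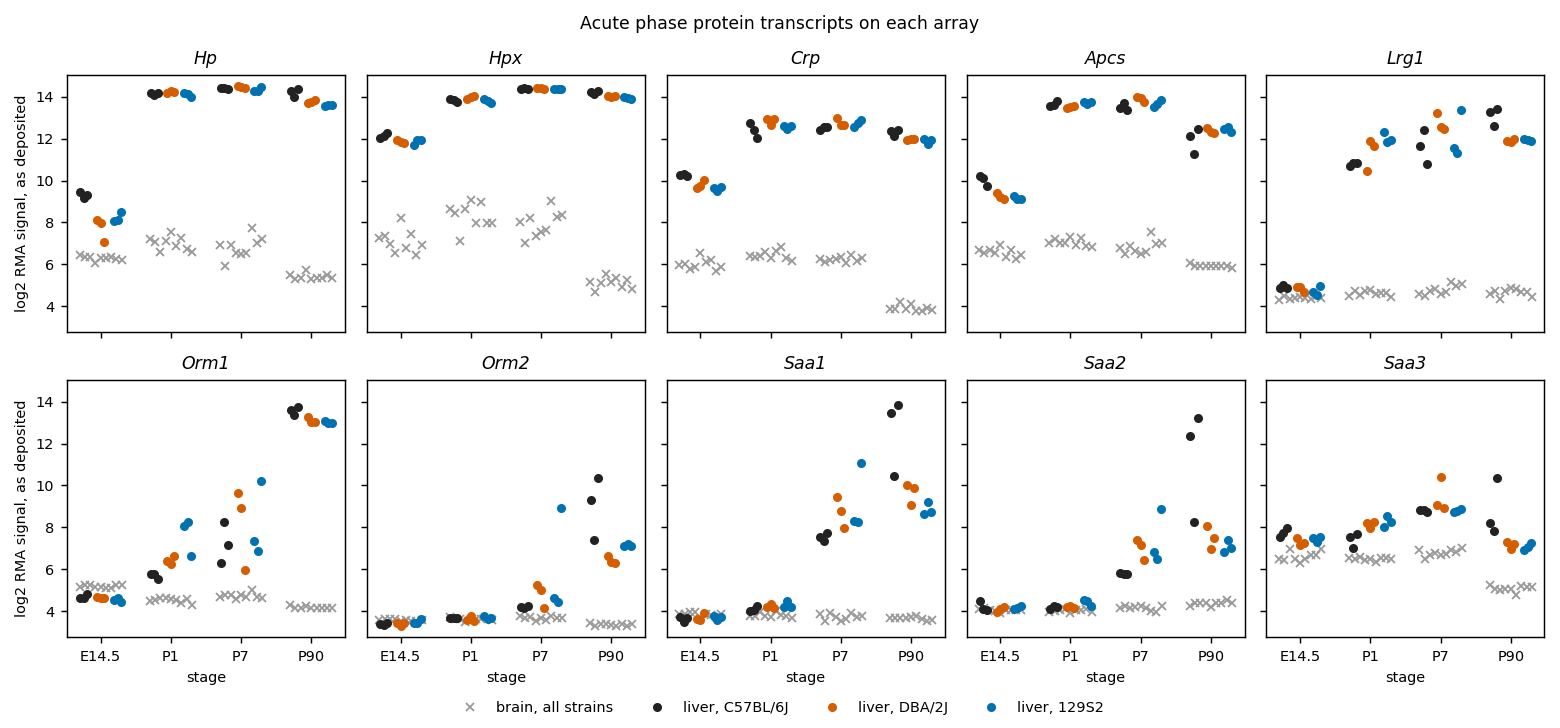
Log2 RMA signal as deposited (y axis) of the main probe set of each member at 4 stages (x axis), 1 point per array, with liver coloured by strain (3 arrays each) and brain as grey crosses (9 arrays per stage). Hp, Hpx, Crp and Apcs lie above brain from E14.5, Saa1 and Saa2 leave the brain level at P7, and the C57BL/6J arrays of Saa1 spread from 10.45 to 13.82 at P90. Stages and tissues were treated as normalized apart.

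The early group was already present in the fetal liver, which at E14.5 is mainly a blood-forming organ. Relative to brain, Hpx was higher by 5.28 ± 0.16 (log2, mean and SD over 3 strains), Crp by 4.34 ± 0.19, Apcs by 3.40 ± 0.44 and Hp by 2.68 ± 0.84. Saa3 exceeded brain by 1.43 ± 0.42. The haem-binding protein Hpx had the largest of these differences. At P1 the differences for Hp and Apcs were 7.58 ± 0.19 and 6.94 ± 0.08. Lrg1 stood at 0.70 ± 0.06 above brain at E14.5 and at 7.20 ± 0.63 at P1, below the 2-fold limit at the first of these stages and far above it at the second.

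Orm1, Orm2, Saa1 and Saa2 were at or near the brain level at E14.5, with differences of -0.13 ± 0.10, 0.06 ± 0.05, 0.08 ± 0.07 and 0.35 ± 0.07. The second Saa1 probe set, 1419075_s_at, was lower in liver than in brain at E14.5, by -1.35 ± 0.04 (16.1% of all probe sets were at least 2-fold lower in each strain). At P1 Orm1 was 2.42 ± 1.10 above brain. Saa1 stood 5.29 ± 0.79 above brain at P7 and 7.43 ± 1.44 at P90, and Saa2 stood 3.17 ± 0.91 and 5.0 ± 1.91 above it. Orm2 was 1.73 ± 0.90 above brain at P7, where the C57BL/6J difference of 0.97 missed the 2-fold limit, and 5.52 ± 1.14 above it at P90. The spread over strains of Saa1, Saa2 and Orm2 at P90 was larger than that of Hpx (0.11 at P90) or Hp (0.14).

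**Figure D3:**
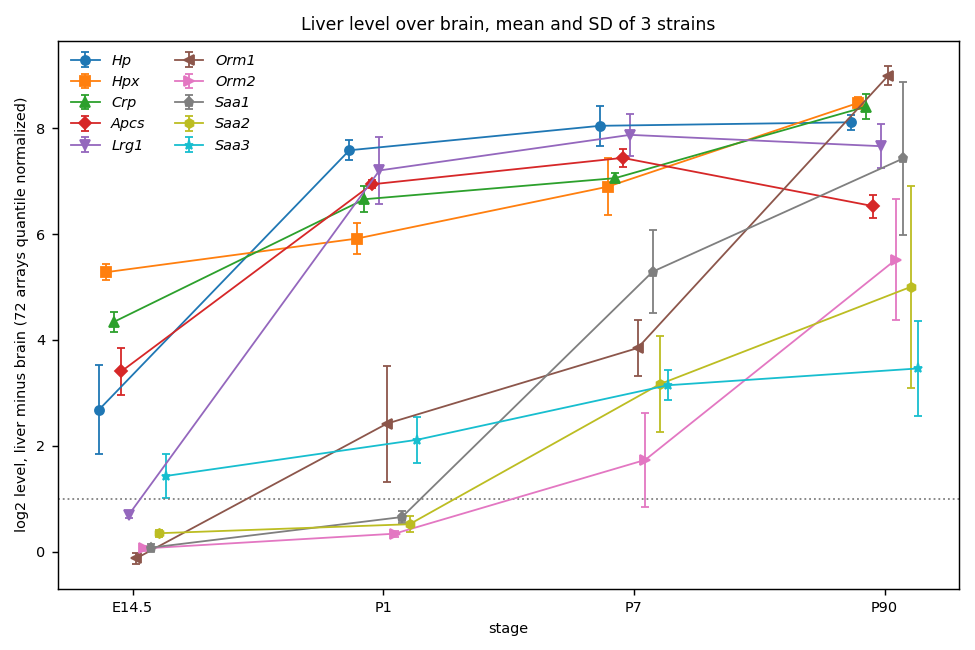
Liver minus brain difference of the log2 level (y axis; 72 arrays quantile normalized together) of each member at 4 stages (x axis), as the mean of 3 strains with SD as error bars. The dotted line marks a 2-fold excess; Hpx, Crp, Apcs, Hp and Saa3 lie above it from E14.5 and Orm2 is at 1.73 at P7 and 5.52 at P90.

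Within liver, the steps between stages fell on different members. From E14.5 to P1, 5 of 11 probe sets were at least 2-fold higher in each strain (7.3% of all probe sets counted): Lrg1 by 6.87 ± 0.73 (log2, mean and SD over strains), Hp by 6.30 ± 0.85, Apcs by 4.58 ± 0.52, Crp by 3.17 ± 0.51 and Hpx by 2.22 ± 0.27. From P1 to P7, 3 of 11 were higher (1.08% of all probe sets), and all 3 read serum amyloid A: Saa1 by 4.44 ± 0.80, its second probe set by 3.69 ± 0.87 and Saa2 by 2.56 ± 0.78. These 3 probe sets read 2 genes that the arrays separate poorly. Both genes were counted only through later groups, where they are high, so this count carries little weight. From P7 to P90, 3 of 11 were higher (9.33%): Orm1 by 5.89 ± 0.80, Orm2 by 3.58 ± 1.86 and the second Saa1 probe set by 3.30 ± 2.93. No member was at least 2-fold lower in each strain at these 3 steps, against 5.34%, 0.676% and 10.2% of all probe sets. Over the whole span from E14.5 to P90 all 11 were higher (17.2%), from Orm1 with 9.36 ± 0.19 down to Saa3 with 1.61 ± 0.66. The Saa3 rise depended on the scale, at 0.17 on the values as deposited and 1.865 with each array centred on its median. Because these livers are bulk tissue, fewer cells of a type and less RNA per cell cannot be told apart.

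A single array decided part of the last step. Without 129S2 replicate 3 at P7, 5 of 11 probe sets were at least 2-fold higher at P90 than at P7 in each strain, since Saa1 in 129S2 went from 0.60 to 1.53 and Saa2 from 0.81 to 1.55. The steps of Saa1 from P7 to P90 were 5.56 in C57BL/6J and 1.72 in DBA/2J. The pentraxin Apcs was lower at P90 than at P7 by -1.03 ± 0.17 on this scale, by -1.44 on the values as deposited and by -0.11 after median centring. Hp, Hpx and Crp had P90 minus P7 values of -0.36, -0.22 and -0.11 that changed sign under median centring, to 0.78, 1.01 and 0.72. The median signal of the P90 liver set was 5.05, against 6.39 to 6.74 in the younger liver sets, and median centring shifts every P90 value by that gap.

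Other genes of the response, from lists of its plasma proteins, receptors and regulators, differed in how many stepped up between E14.5 and P1. Of 22 other plasma proteins that rise in the acute phase, 16 were at least 2-fold higher at P1 in each strain and none was lower, with a median of 2.445 (members 2.08, all probe sets -0.06). Fgl1, a secreted fibrinogen-like protein, was higher by 7.05 ± 0.40 and the protease inhibitor Serpina3n by 5.82 ± 0.71. Of 15 cytokine receptors and signal transducers, 5 were higher, among them the interleukin-1 receptor subunit Il1rap by 4.45 ± 0.13, the oncostatin M receptor Osmr by 2.75 ± 0.42 and the shared interleukin-6 receptor chain Il6st by 2.21 ± 0.26. Of 7 transcription factors 4 were higher, with Hnf4a at 2.145 ± 0.09, Cebpa at 2.14 ± 0.30 and Cebpb at 1.87 ± 0.14. Between P1 and P7, when the Saa1 and Saa2 signals rose above brain, 0 of the 22 plasma proteins passed 2-fold in each strain in either direction (median of the list 0.198). This count leaves out genes that passed 2-fold in only some strains. In the receptor list Il1rap alone did, by 1.42 ± 0.06, and of 4 cytokines counted Il1b (interleukin-1 beta) did, by 1.68 ± 0.19. Between P7 and P90 the plasma protein list was split, with 3 higher and 4 lower, and the iron-binding protein Lcn2 was lower by -5.25 ± 1.71. Markers of several cell types moved over the same steps. From E14.5 to P1, 6 of 9 hepatocyte markers, 5 of 11 neutrophil granule markers (median of the list 2.12) and 4 of 9 Kupffer cell and macrophage markers were higher, and 4 of 7 erythroid markers were lower. From P7 to P90, 10 of 11 neutrophil, 7 of 9 macrophage and 6 of 7 erythroid markers were lower. The part of these cell types in the members' steps was not tested.

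The main comparison was between strains within each stage of liver, whose arrays were treated as sharing a normalization. It was fitted with limma on the 9 arrays of a stage, and a probe set counted as called where it differed at least 1.5-fold with a p under 0.05, adjusted by Benjamini and Hochberg's method over all probe sets tested. Probe sets entered when their highest strain mean lay above the median signal of the set. Counts below are of member probe sets called in at least 1 of the 3 strain pairs: 3 of 5 tested at E14.5 (7.22% of all probe sets tested), 2 of 7 at P1 (11.9%), 0 of 10 at P7 (9.39%) and 7 of 11 at P90 (12.9%), the last from 6 genes, since both Saa1 probe sets were among them. Every called member difference was between C57BL/6J and one or both of the other strains. The limma test called no member between 129S2 and DBA/2J at any stage, where the lowest adjusted p was 0.0632 (Orm1 at P1), while the shares of all probe sets called in that pair were 2.83% at E14.5, 6.88% at P1, 5.64% at P7 and 7.14% at P90.

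**Figure D4:**
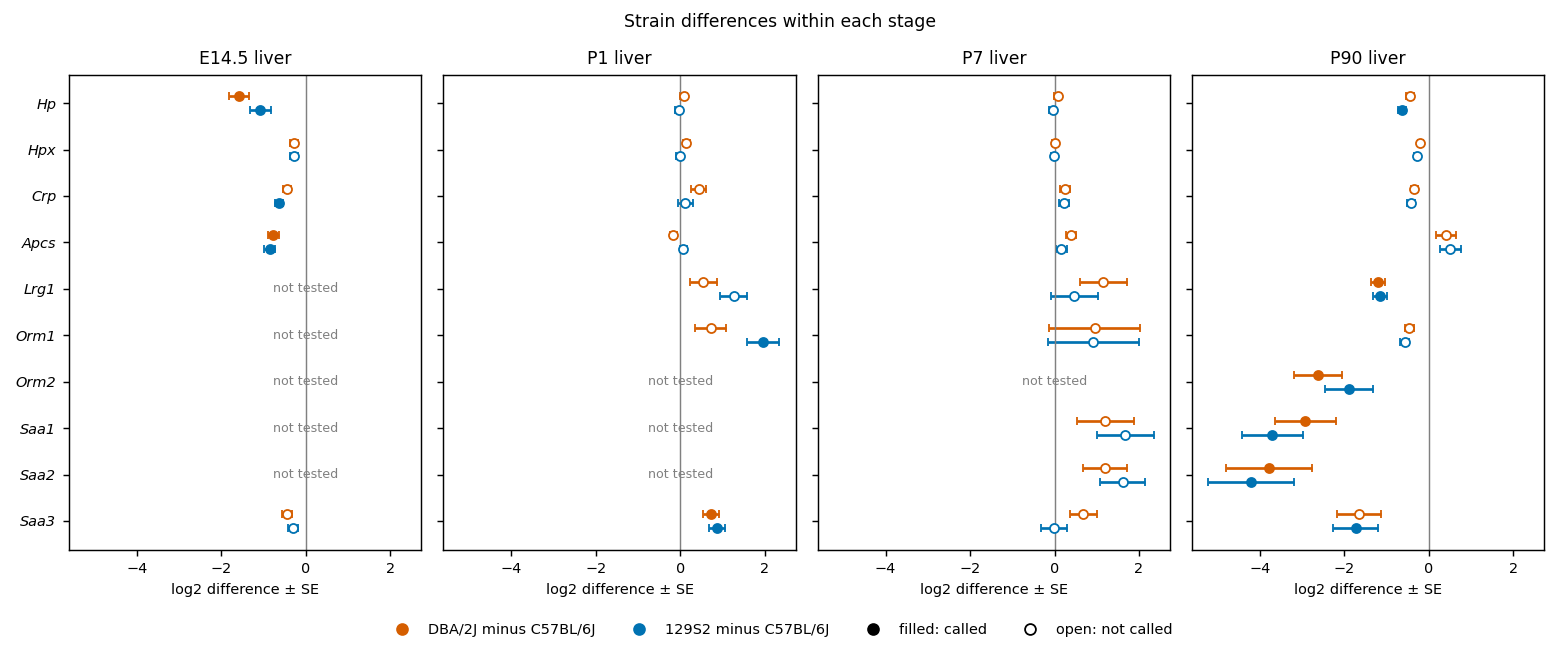
Log2 difference from C57BL/6J (x axis) of DBA/2J and of 129S2 for the main probe set of each member (rows) in liver at 4 stages, with the standard error of the limma fit as error bar; filled points were called and open points were not. At E14.5 called members lie to the left (lower than C57BL/6J), at P1 to the right, and at P90 to the left, with Saa2 at -4.21 for 129S2.

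At E14.5 the haemoglobin binder Hp and the pentraxins Apcs and Crp were lower outside C57BL/6J, with 2 members called for DBA/2J (2.9% of all probe sets were lower there) and 3 for 129S2 (2.19%). Hp read 9.44, 9.17 and 9.32 in C57BL/6J, 8.12, 7.99 and 7.07 in DBA/2J and 8.06, 8.13 and 8.48 in 129S2. All 3 C57BL/6J arrays lay above the other 6. The difference was -1.58 ± 0.25 (SE) for DBA/2J, a signal lower by a factor of 2.996 (adjusted p = 0.00402), and -1.08 ± 0.25 for 129S2, 2.12-fold lower (adjusted p = 0.0299). The 129S2 call was lost without any 1 of the 3 C57BL/6J arrays or without 129S2 replicate 1 or 2, where the adjusted p reached 0.116 at most over the alternatives.

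Apcs read 10.21, 10.12 and 9.74 in C57BL/6J, 9.42, 9.22 and 9.11 in DBA/2J and 9.25, 9.14 and 9.11 in 129S2, again without overlap between C57BL/6J and the rest. It was lower by -0.77 ± 0.13 in DBA/2J (adjusted p = 0.00582) and by -0.85 ± 0.13 in 129S2 (adjusted p = 0.00447). Crp was called for 129S2 only, at -0.63 ± 0.10 (adjusted p = 0.0054); in DBA/2J it was lower by -0.44 ± 0.10 (adjusted p = 0.0233), under the 1.5-fold limit. The haem binder Hpx differed by -0.29 ± 0.10 in both strains and was not called (adjusted p = 0.0976 and 0.115). Its difference was thus in the direction of Hp but smaller.

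Other cell type markers moved with these differences. Of 10 neutrophil granule markers tested at E14.5, 10 were lower in DBA/2J and 4 in 129S2 than in C57BL/6J and their summed level (log2 of the sum of linear signals of 11 genes) was 15.03 to 15.05 in C57BL/6J, 12.78 to 14.07 in DBA/2J and 14.05 to 14.24 in 129S2. Kupffer cell and macrophage markers were lower for 1 of 8 tested in DBA/2J and 3 of 8 in 129S2. Of 9 hepatocyte markers, 2 were lower in DBA/2J (Ahsg by -1.01, Apoh by -0.63) and 0 in 129S2. In both strains the urea cycle enzyme Cps1 was higher, by 1.15 in DBA/2J and 3.31 in 129S2. Lcn2, a product of both neutrophils and hepatocytes, was lower in DBA/2J by -2.21 ± 0.43 (adjusted p = 0.012). The part of these cell types in the E14.5 differences was not tested.

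At P1 the called differences ran the other way, with Saa3 and Orm1 higher outside C57BL/6J, 1 member for DBA/2J (3.41% of all probe sets were higher there) and 2 for 129S2 (1.02%). Saa3 read 7.55, 7.03 and 7.68 in C57BL/6J, 8.23, 7.97 and 8.25 in DBA/2J and 8.04, 8.55 and 8.25 in 129S2. The C57BL/6J arrays lay below all others, with differences of 0.73 ± 0.19 for DBA/2J (adjusted p = 0.0365) and 0.86 ± 0.19 for 129S2 (adjusted p = 0.0495). The carrier protein Orm1 read 5.77, 5.77 and 5.55 in C57BL/6J, 6.39, 6.25 and 6.62 in DBA/2J and 8.08, 8.27 and 6.61 in 129S2. Replicates 1 and 2 of 129S2 were the high arrays, and replicate 3 lay just under the highest DBA/2J array, within the DBA/2J range. Its 129S2 difference was 1.96 ± 0.37 (adjusted p = 0.0276). Orm1 entered the P1 test only through 129S2, where its mean of 7.66 lay above the filter of 6.62, so this call carries little weight. The 2 calls at P1 were not stable: without each array of the stage in turn the count was 0 or 1. Saa3 kept its call under 12 of 20 alternatives for DBA/2J and 6 of 20 for 129S2, and Orm1 under 10 of 19. The 129S2 call of Saa3 was lost with no filter, with each array centred on its median and after quantile normalization, among others.

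Lrg1 showed a similar direction at P1 but was not called. It read 10.67, 10.82 and 10.83 in C57BL/6J, 10.45, 11.87 and 11.63 in DBA/2J and 12.33, 11.85 and 11.93 in 129S2. The 129S2 difference was 1.26 ± 0.32 (adjusted p = 0.0862), with 3 of 3 arrays above those of C57BL/6J. Hp, Apcs and Hpx, which had stepped up since E14.5, differed by no more than 0.16 from C57BL/6J in either strain, with adjusted p from 0.228 to 0.968. Hp read 14.01 to 14.28 on the 9 arrays, near the top of the scale, where the highest liver value at P1 was 14.88. Crp, which had also stepped up, was higher by 0.43 ± 0.17 in DBA/2J (adjusted p = 0.126) and by 0.12 ± 0.17 in 129S2 (adjusted p = 0.843). The P1 livers of 129S2 and DBA/2J held lower macrophage markers, 5 and 3 of 9 tested, while of 11 neutrophil granule markers 0 were called in 129S2, and 3 were higher and 1 lower in DBA/2J. The part of these cells in the Saa3 values was not tested.

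At P7 no member was called in any pair by limma, with 10 member probe sets tested in each of 3 pairs. An unadjusted p under 0.05 came up in 5 of these tests, for Saa1, Saa2 and Apcs. The share of all probe sets at that limit was not counted. Saa1 read 7.52, 7.35 and 7.73 in C57BL/6J, 9.45, 8.77 and 7.98 in DBA/2J and 8.30, 8.24 and 11.09 in 129S2. All C57BL/6J arrays lay below the other 6, with differences of 1.2 ± 0.68 for DBA/2J (adjusted p = 0.322) and 1.68 ± 0.68 for 129S2 (adjusted p = 0.186). Saa2 read 5.83, 5.77 and 5.79 in C57BL/6J, 7.40, 7.15 and 6.43 in DBA/2J and 6.84, 6.49 and 8.89 in 129S2, also without overlap between C57BL/6J and the others. The array 129S2 replicate 3 widened the spread that all strains share in the fit. Without it Saa2 was called between DBA/2J and C57BL/6J, at 1.19 ± 0.23 (adjusted p = 0.0211), and Saa1 reached an adjusted p of 0.064 at 1.2 ± 0.31. The 129S2 differences without it were 0.74 ± 0.35 for Saa1 (adjusted p = 0.343) and 0.87 ± 0.25 for Saa2 (adjusted p = 0.113), far under the values with all arrays. The C57BL/6J mean of Saa2, 5.80, lay below the filter of 6.39, so Saa2 entered through the other strains.

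Orm1 and Lrg1 varied from array to array at P7. Orm1 read 6.30, 8.23 and 7.14 in C57BL/6J, 9.66, 8.92 and 5.95 in DBA/2J and 7.37, 6.85 and 10.22 in 129S2, so that each strain held low and high arrays and the ranges overlapped. The SD within a strain was 0.97 in C57BL/6J, 1.97 in DBA/2J and 1.81 in 129S2, against 0.05 to 0.19 for the same probe set at P90. Orm2, below the filter and not tested at P7, read 4.599, 4.45 and 8.94 in 129S2 and between 4.14 and 5.27 on the other 6 arrays. Lrg1 read 11.63, 12.41 and 10.77 in C57BL/6J, 13.25, 12.55 and 12.48 in DBA/2J and 11.54, 11.29 and 13.37 in 129S2. In contrast Hpx stayed between 14.36 and 14.41 on all 9 arrays and Hp spanned 0.21, both near the upper end of the scale, where the highest liver value at P7 was 14.88.

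Beside these values, neutrophil granule markers at P7 were lower in 129S2 for 11 of 11 tested and in DBA/2J for 7 of 11 than in C57BL/6J (2.48% and 2.2% of all probe sets lower). The summed level of these markers was 14.32 on 129S2 replicate 3 against 14.37 and 14.24 on the other 2, a sum carried by the brightest genes. The single granule marker Prtn3 was higher on replicate 3, at 9.23 against 8.21 and 7.92, and so was Lcn2, at 13.06 against 11.41 and 11.74. Of 9 macrophage markers 5 were lower in 129S2 and 0 in DBA/2J than in C57BL/6J, with a summed level of 14.11 on replicate 3 against 14.11 and 14.15. The part of these cells in the values of replicate 3 was not tested.

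At P90 the called differences put serum amyloid A, Orm2, Lrg1 and Hp higher in C57BL/6J than in one or both other strains; for Saa1 and Saa2 this is opposite in sign to the values measured at P7. The count was 5 probe sets lower in DBA/2J (3.39% of all) and 7 lower in 129S2 (5.17%). Saa1 read 13.44, 10.45 and 13.82 in C57BL/6J, 10.002, 9.09 and 9.86 in DBA/2J and 8.65, 9.22 and 8.74 in 129S2. Replicates 1 and 3 of C57BL/6J were far above everything else, while replicate 2 lay just above the highest DBA/2J array. The difference was -2.92 ± 0.72 for DBA/2J, 7.59-fold lower (adjusted p = 0.023), and -3.70 ± 0.72 for 129S2, 13.0-fold lower (adjusted p = 0.00463). Saa2 read 12.36, 8.28 and 13.24 in C57BL/6J, 8.09, 6.98 and 7.47 in DBA/2J and 6.83, 7.41 and 6.99 in 129S2. It was lower by -3.78 ± 1.01 in DBA/2J (adjusted p = 0.0334) and by -4.21 ± 1.01 in 129S2 (adjusted p = 0.0136). The second Saa1 probe set gave -3.40 and -4.15, with adjusted p of 0.0221 and 0.00537.

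Orm2 followed the same arrays, at 9.31, 7.40 and 10.38 in C57BL/6J, 6.62, 6.34 and 6.27 in DBA/2J and 7.12, 7.22 and 7.12 in 129S2. It was lower by -2.62 ± 0.57 in DBA/2J (adjusted p = 0.0124) and by -1.88 ± 0.57 in 129S2 (adjusted p = 0.0371). Saa3 read 8.19, 7.81 and 10.38 in C57BL/6J, with replicate 3 alone far up, and from 6.89 to 7.29 in the other strains. It was called for 129S2, at -1.73 ± 0.53 (adjusted p = 0.0378), and not for DBA/2J, at -1.65 ± 0.53 (adjusted p = 0.0646), though the difference between these strains was itself not called.

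Lrg1 separated C57BL/6J from the others on every array. It read 13.25, 12.63 and 13.43 in C57BL/6J, 11.91, 11.84 and 11.97 in DBA/2J and 11.997, 11.94 and 11.91 in 129S2. Even the lowest C57BL/6J array lay above the highest of the other strains. The differences were -1.2 ± 0.17 (adjusted p = 0.00109) and -1.16 ± 0.17 (adjusted p = 0.000886), 2.30-fold and 2.23-fold. Hp read 14.29, 13.99 and 14.38 in C57BL/6J, 13.72, 13.76 and 13.83 in DBA/2J and 13.55, 13.59 and 13.59 in 129S2, and was called for 129S2 at -0.64 ± 0.09 (adjusted p = 0.000912).

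Hpx, Orm1 and Crp were lower in both strains at an adjusted p under 0.05 but under the 1.5-fold limit. Orm1, which varied widely at P7, differed by -0.46 ± 0.10 (adjusted p = 0.0127) and -0.57 ± 0.10 (adjusted p = 0.00262), Crp by -0.34 and -0.43, and Hpx by -0.21 and -0.29. Apcs had the opposite sign. It read 12.12, 11.28 and 12.45 in C57BL/6J, 12.49, 12.33 and 12.26 in DBA/2J and 12.48, 12.58 and 12.32 in 129S2, with overlapping ranges and differences of 0.41 ± 0.24 (adjusted p = 0.29) and 0.51 ± 0.24 (adjusted p = 0.157). Its lowest array was again C57BL/6J replicate 2.

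The P90 sizes rested on replicates 1 and 3 of C57BL/6J. With both left out, a choice made after seeing the values, in which the single remaining C57BL/6J array is assumed to vary like the other groups, Saa1 differed by -0.80 for DBA/2J (adjusted p = 0.265) and by -1.58 for 129S2 (adjusted p = 0.0328). Saa2 differed by -0.76 (adjusted p = 0.326) and -1.2 (adjusted p = 0.099), and Orm2 for 129S2 by -0.25 (adjusted p = 0.318). The calls of Saa1 for DBA/2J, of Saa2 for both strains and of Orm2 and Hp for 129S2 were thus lost, Hp at -0.41 through the fold limit. The Hp call was also lost without C57BL/6J replicate 3 alone, at -0.56, and after quantile normalization, at -0.41. Lrg1 kept both calls at -0.72 (adjusted p = 0.00468) and -0.68 (adjusted p = 0.00459), and Orm2 for DBA/2J kept its call at -0.99 (adjusted p = 0.00728). The Saa1 and Saa2 differences from DBA/2J also lost their calls without C57BL/6J replicate 1 or 3 alone and without DBA/2J replicate 1, 2 or 3, and with a trended and robust variance. The Orm2 difference from 129S2 was called under 11 of 21 alternatives, the Saa3 difference under 14 of 21 and the Lrg1 differences under 21 of 21.

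**Figure D5:**
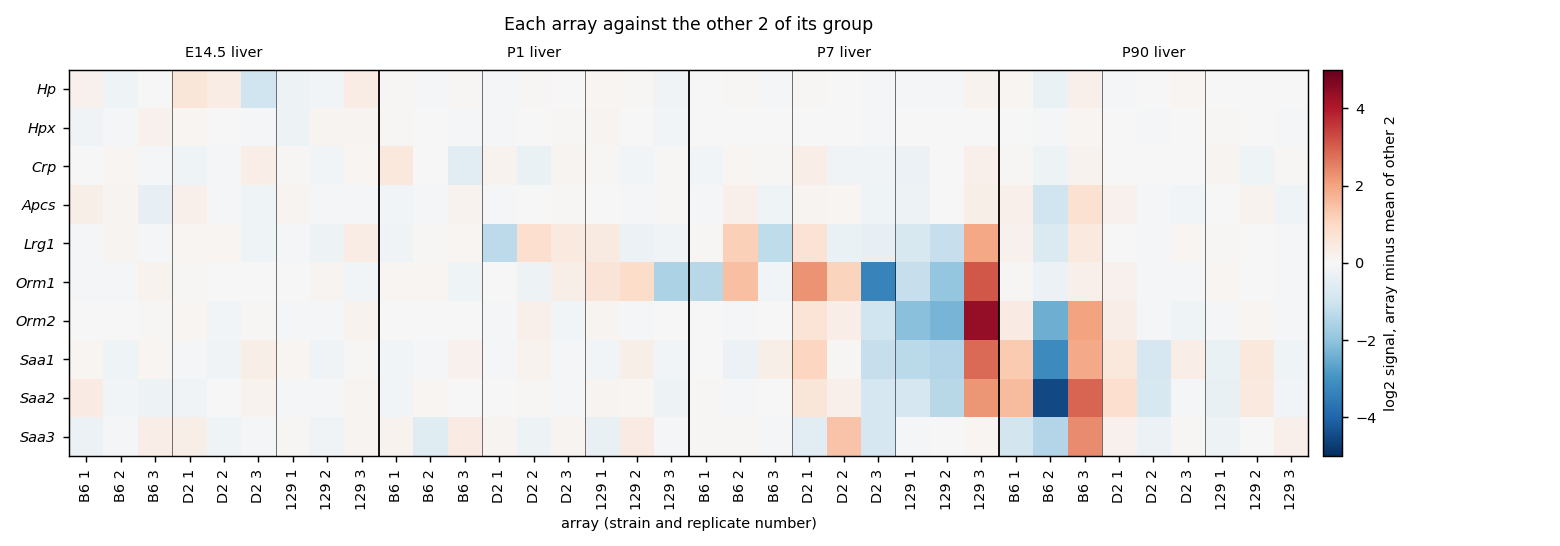
Each of 36 liver arrays (columns, by stage, strain and replicate number; B6 is C57BL/6J, D2 is DBA/2J and 129 is 129S2) minus the mean of the other 2 arrays of its group, in log2 signal, for the main probe set of each member (rows). The 129S2 array 3 at P7 is high (Orm2 by 4.41), and C57BL/6J array 2 at P90 is low against arrays 1 and 3.

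The weight of single arrays was described for every group as an array's value minus the mean of the other 2. At E14.5 no array was 2-fold above or below for any of the 10 members. At P1 Orm1 in 129S2 replicate 3 and Lrg1 in DBA/2J replicate 1 were 2-fold below. At P7, 129S2 replicate 3 was more than 2-fold above for 5 of 10 members (0.152% of all probe sets on that array), with Orm2 at 4.41, Orm1 at 3.11 and Saa1 at 2.82. DBA/2J replicates 1 and 2 and C57BL/6J replicate 2 were above for 2 members each (0.335%, 0.779% and 1.29% of all probe sets). DBA/2J replicate 3 was below for 3 members (0.254%), 129S2 replicates 1 and 2 for 3 (0.22%) and 5 (0.0805%), and C57BL/6J replicates 1 and 3 for 1 each (0.119% and 0.864%). At P90, C57BL/6J replicate 3 was above for 4 members (0.136% of all probe sets) and replicate 1 for 2 (0.0768%), and replicate 2 was below for 5 (0.0853%). No array of DBA/2J or 129S2 at P90 was 2-fold apart for any member. The other 2 arrays set each comparison, so 1 low array and 2 high ones cannot be told apart.

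The genes whose deviations from their group means went most closely with the mean of Saa1 and Saa2 over the 36 liver arrays were, of 13811 ranked, Orm2 (Pearson r = 0.871), Lcn2 (0.81) and Apcs (0.783), followed by Cyb561, Prtn3, Rpap3, Skap2, Kctd18, Fgl1 and Litaf, the last at 0.658. These are descriptions, since the arrays share strains, stages and normalization sets. Without the 2 arrays of largest deviation, C57BL/6J replicate 2 at P90 and 129S2 replicate 3 at P7, the values were 0.861 for Orm2, 0.65 for Lcn2 and 0.634 for Apcs. The other members ranked lower, from Lrg1 at 0.56 to Hpx at 0.246. Lcn2 at P90 read 8.51, 5.28 and 10.13 in C57BL/6J and from 4.09 to 5.26 on the 6 other arrays, high on the same replicates as Saa1.

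Over the 12 liver group means, likeness was measured by Pearson's r after joint quantile normalization and set beside r on the values as deposited. For the early members the closest genes were alike on both scales: Hp with Apoc4 (0.998, and 0.992 as deposited), Hpx with Slc17a2 (0.996, 0.992) and with the copper-binding acute phase protein Cp (0.996, 0.993), Crp with the fibrinogen chain Fga (0.994, 0.982), and Apcs with the coagulation factor subunit F13b (0.997, 0.99). Lrg1 went with the complement protease C1s1 (0.993, 0.969), and Saa1 with Saa2 (0.977, 0.971). For Saa1, Orm1 and Orm2 the closest gene was alike on the quantile scale only. These were Loxl4 with Saa1 (0.99, but -0.40 as deposited), Lat2 with Orm1 (0.992, -0.08) and Eme2 with Orm2 (0.978, -0.64). Loxl4 also came second for Saa2 (0.973, -0.40), after Saa1. The second closest genes of the orosomucoids were positive on both scales, Adh4 with Orm1 (0.99, 0.986) and Mif4gd with Orm2 (0.977, 0.711). Of the genes closest to Saa3, the chemokine Cxcl9 gave 0.909 and 0.848. Group means of developing liver share a large common rise, so values near 1 are frequent and carry no test.

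At P90 some of the response's other genes were also lower outside C57BL/6J. Over the 21 other plasma proteins tested the median difference was -0.164 in DBA/2J and -0.097 in 129S2 (all probe sets 0.005 and 0.011). Of 21 other plasma proteins tested, 3 were lower than in C57BL/6J in each of the other strains, among them Lcn2 by -3.64 ± 0.93 in DBA/2J (adjusted p = 0.027) and -2.93 ± 0.93 in 129S2 (adjusted p = 0.045). Lcn2 entered this test only through C57BL/6J, as its means in the other strains lay below the filter. Fgl1 was lower by -2.34 ± 0.22 (adjusted p = 7.6e-05) and -2.05 ± 0.22 (adjusted p = 0.00013). It read 12.87, 12.23 and 12.93 in C57BL/6J and no more than 10.68 elsewhere, so replicate 2 was high as well. In the other direction 1 was called in DBA/2J and 2 in 129S2, among them Hamp2, a hepcidin, higher by 3.70 and 1.11. Of 15 receptors and transducers, the transcription factor Stat3 was lower in both strains, by -0.66 ± 0.11 (adjusted p = 0.0035) and -0.65 ± 0.11 (adjusted p = 0.0027), and Il1r1 and Osmr were lower in 129S2, by -1.21 and -0.71. Of 7 transcription factors of these promoters, Cebpd and Cebpb were lower in DBA/2J, by -0.81 each (adjusted p = 0.034 and 0.029). Replicate 2 of C57BL/6J was the lowest of its group for Cebpd, but not for Stat3, Il1r1, Osmr or Cebpb. None of 4 cytokines tested was called, and the plasma proteins that fall in the acute phase gave 1 call of 7 in each strain, Serpina6, higher by 1.08 in DBA/2J and 2.19 in 129S2.

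Markers of other cells moved with the strains at P90. Macrophage and Kupffer cell markers were lower for 7 of 9 tested in DBA/2J and 8 of 9 in 129S2 with a summed level of 12.56 to 13.09 in C57BL/6J, 11.94 to 12.23 in DBA/2J and 11.99 to 12.05 in 129S2. Of 4 neutrophil granule markers tested, 3 were lower in each strain, S100a8, Prtn3 and S100a9. Both S100a8 and Prtn3 entered this test only through C57BL/6J, as their means in the other strains lay below the filter. The summed level of 11 neutrophil granule markers, tested or not, was 8.76, 8.16 and 9.06 in C57BL/6J and 8.05 to 8.15 on the other 6 arrays. The same replicates 1 and 3 of C57BL/6J were the high ones. Of 9 hepatocyte markers 0 were called by limma, with a summed level of 17.31 to 17.36 on all 9 arrays, carried by genes such as Alb (14.81 to 14.86) that lie near the top of the scale. The part of macrophages and neutrophils in the P90 differences was not tested.

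Whether strain differences changed with stage was tested with the interaction of strain and stage over the 36 liver arrays. Each p comes from an F test over all interaction terms together, so it does not measure the single pair and stages named. Those were picked afterwards as the largest change of a probe set. Of 11 probe sets, 9 were called (27.7% of all probe sets tested), from 8 genes, the exceptions being Hpx, whose largest change of 0.43 missed the fold limit, and Orm1 (adjusted p = 0.27). The difference of 129S2 from C57BL/6J changed by 5.38 for Saa1 between P7 and P90 (adjusted p = 0.00044) and by 5.82 for Saa2 (adjusted p = 0.00058). Saa1 and Saa2 lay below the filter at E14.5 and P1 and entered through P7 and P90, where they are high. Their p thus carries little weight. For Hp the DBA/2J difference changed by 1.67 between E14.5 and P1 (adjusted p = 1.6e-05). At P1 Hp lay near the top of the scale, at 14.01 to 14.28, and whether this limited its difference was not tested. Stages were treated as normalized apart, so a different scale of the sets could change these sizes.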

How the data were processed

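The deposited values were log2 expression of 45101 Affymetrix probe sets, made by the authors with RMA per the submitters' processing notes (version not given in the sources used here), per the labels' protocols from total RNA of frozen whole tissue. Equal values recur within a tissue and stage (1.55% to 4.35% of values of 2 arrays) and never across, so the 8 sets of 9 arrays were treated as normalized apart. Probe sets were named by the platform annotation, with 34958 carrying 1 symbol. Strains were tested with limma 3.58.1 in R 4.3.3 within each liver stage; the fits were checked on simulated data. Stages and tissues were quantile normalized and compared by size (2-fold in each strain). Promoter windows were read with Python 3.11.15. Members, lists and tests were chosen with earlier results of these data known. All 10 members are named. From each other list at most 3 called genes of largest change are named, and outside the lists the 10 genes closest to Saa1 and Saa2 over arrays and the 2 closest to each member over group means. Alternatives covered filters, scaling, fold limits, pooled or robust variance, array weights, the replicate number as a block and each array left out. The replicate numbers were checked as pairs by correlating the deviations of same-numbered liver arrays: all 9 pairs at E14.5 were over 0.1 (0.146 to 0.727), against 2 of 9 at P1, 5 at P7 and 0 at P90, so the numbers pair the arrays of all strains at E14.5 and, at P7, those of 129S2 and C57BL/6J (0.306 to 0.379).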

Additional observations from a re-analysis of the deposited data

Results flagged for a closer look

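Strain differences of 8 members differed between stages in the interaction test over 36 liver arrays, each given as the largest change in the log2 difference from C57BL/6J. Each p belongs to the F test of all interaction terms together, not to the pair and stages named. For 129S2, Saa1 changed by 5.38 (adjusted p = 0.00044), from 1.68 at P7 to -3.70 at P90. Saa2 in 129S2 changed by 5.82 (adjusted p = 0.00058), from 1.61 at P7 to -4.21 at P90. Orm2 changed by 3.68 (adjusted p = 0.037), from 1.80 at P7 to -1.88 at P90, but it lay below the filter at the younger stages and entered only through P90, where it is high, so its p carries little weight. In these 3 members the P7 value holds the high 129S2 replicate 3, and the P90 value the high C57BL/6J replicates 1 and 3. Saa3 in 129S2 changed by 2.60 (adjusted p = 0.0032), from 0.86 at P1 to -1.73 at P90. Lrg1 changed by 2.42 (adjusted p = 0.0055), from 1.26 at P1 to -1.16 at P90. Saa1 and Saa2 lay below the filter at E14.5 and P1, and Lrg1 at E14.5. They entered through the later stages, where they are high, so the limit given for the p of Orm2 holds for theirs too. For Apcs the 129S2 difference changed by 1.36 (adjusted p = 0.00076), from -0.85 at E14.5 to 0.51 at P90. For DBA/2J, Hp changed by 1.67 (adjusted p = 1.6e-05), from -1.58 at E14.5 to 0.08 at P1, and Crp by 0.87 (adjusted p = 0.0012), from -0.44 to 0.43. Hp lay near the top of the scale at P1, and the effect of this was not tested. Single outlying arrays were not tested in these groups of 3.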

How the results depend on the processing

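The count of member probe sets called between strains (Saa1 has 2) was 3 at E14.5 under every alternative run, 6 to 10 at P90 (main 7) and 8 to 10 for the interaction (main 9), without each array included. At P1 it was 1 instead of 2 with the 75th percentile filter, with all 36 liver arrays in 1 fit and with array weights, and 0 to 1 without each array in turn. At P7 it was 2 instead of 0 with all 36 liver arrays in 1 fit (the second Saa1 probe set for 129S2 at an adjusted p of 0.0475, Lrg1 for DBA/2J at 0.0483), and 0 to 1 without each array in turn. The count of member probe sets higher at P90 than at P7 ran from 2 to 5 without each array in turn (main 3). With the replicate number as a block, the P1 count was 0; at E14.5, where the numbers pair the arrays of all strains, it stayed at 3, at P7 at 0 and at P90 at 7, and the interaction count was 8. No called member difference between strains changed sign under any alternative run. Causes of these shifts were not tested. The values carry no detection calls, so signals near the bottom of the scale bound the low members only, and Hp and Hpx lie near its top.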
